A study of Mus musculus with 6 samples.

Results

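The genes described here encode proteins of the eosinophil granule and receptors of the eosinophil surface: Prg2, Prg3, Epx, Ear2, Siglecf, Ccr3 and Il5ra. They were taken by name, as the rows of the count table whose GENCODE release M21 symbol was on that list of 7, and all 7 were found among the 24906 genes of the table. All 7 also passed the filter on low values (10 or more normalized counts in 3 or more libraries), as did 15564 genes in all.

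Polyadenylated RNA was sequenced from spleen cells of 6 C57BL/6J mice between 12 and 16 months old. In the D3TA group were 3 mice with a CRISPR/Cas9-made change in Ccnd3, the gene for cyclin D3, that puts alanine in place of threonine 283, from a line kept as heterozygous knock-in; the labels do not say whether the sampled mice had 1 or both alleles. The WT group was made up of 3 wild-type mice matched for age, and the labels name no treatment. Each library is 1 mouse, and the series record describes severe myeloproliferative neoplasm in knock-in mice of this age.

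Eosinophils are granulocytes that mature in bone marrow under interleukin-5 and move into tissues along gradients of eotaxins. Their granules hold a core of major basic protein surrounded by a matrix of eosinophil peroxidase and ribonucleases. The interleukin-5 receptor pairs a specific alpha chain, encoded by Il5ra, with a beta chain that it shares with the receptors of interleukin-3 and GM-CSF. Il5ra is also known from B-1 cells and other B lineage cells, and Ear2 from monocytes and macrophages, so in whole spleen these transcripts need not come from eosinophils alone. In such bulk samples fewer cells of a type and less RNA per cell cannot be told apart.

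The windows of 250 bases before the transcription start are shown for 4 members, chosen with their values known. Prg3 and Il5ra were lower in each D3TA library than in any WT library. Ccr3 and Epx overlapped between the groups, with the library WT-3 highest at 2.07 and 1.66 times the next library. Ear2, at 2.52 times, had the same pattern and is not shown. Capitals mark matches, on either strand, to the letters AGATAA (or with another base at an end, AGATAG and also TGATAA and likewise TGATAG), the core bound by GATA factors, which are known for directing the eosinophil lineage. The sequences are from RefSeq on GRCm38.p6, written 5′ to 3′ on the strand of the gene, with the start site just after the last base.
Prg3 (chr2:84987965-84988214, plus strand): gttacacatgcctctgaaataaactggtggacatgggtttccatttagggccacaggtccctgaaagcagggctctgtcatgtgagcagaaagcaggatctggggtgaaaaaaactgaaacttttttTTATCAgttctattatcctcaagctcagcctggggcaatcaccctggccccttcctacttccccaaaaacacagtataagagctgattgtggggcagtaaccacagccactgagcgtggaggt
Il5ra (chr6:106749038-106749287, minus strand): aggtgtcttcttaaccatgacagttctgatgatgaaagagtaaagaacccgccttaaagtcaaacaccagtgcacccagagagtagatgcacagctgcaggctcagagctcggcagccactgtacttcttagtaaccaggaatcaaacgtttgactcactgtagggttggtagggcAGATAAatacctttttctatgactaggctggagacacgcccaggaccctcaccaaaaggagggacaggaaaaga
Ccr3 (chr9:124021721-124021970, plus strand): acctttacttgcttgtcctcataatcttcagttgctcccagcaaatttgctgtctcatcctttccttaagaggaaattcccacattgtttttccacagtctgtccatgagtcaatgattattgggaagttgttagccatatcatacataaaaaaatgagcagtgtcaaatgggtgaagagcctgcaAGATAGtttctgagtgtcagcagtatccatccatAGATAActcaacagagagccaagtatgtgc
Epx (chr11:87875537-87875786, minus strand): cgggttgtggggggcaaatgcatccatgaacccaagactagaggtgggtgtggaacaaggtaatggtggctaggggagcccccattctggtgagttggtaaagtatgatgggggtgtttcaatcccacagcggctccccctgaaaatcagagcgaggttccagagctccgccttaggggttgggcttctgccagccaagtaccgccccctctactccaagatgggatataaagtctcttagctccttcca
Prg3 held 1 match (TTATCA, the reverse strand form, 123 to 118 bases before the start), Il5ra held 1 (AGATAA, 74 to 69 bases before it) and Ccr3 held 2 (AGATAG at 64 to 59 and AGATAA at 30 to 25 bases). Epx held 0. The RefSeq table held a window for 6 of the 7 members, and 3 of these 6 had a match, where 26.5% of all 32851 windows of that length had at least 1. The letters TTNNGNAA of C/EBP factors (both strands, N being any base) occurred in the windows of Prg3, Ear2, Siglecf and Ccr3 and in 36.8% of all windows. The letters GAGGAA, a core of PU.1 sites (both strands), occurred in those of Siglecf and Ccr3 and in 23.3% of all windows. These matches describe the letters only, and binding was not measured.

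Reads assigned to genes numbered 14944622 (WT-2) to 19456838 (WT-3) per library. Values are given in the order of the library numbers, as normalized counts, reads divided by a size factor per library, in which 3 reads correspond to 2.59 to 3.36. Each difference subtracts WT from D3TA after log2(normalized count + 1), as fitted with limma, with Benjamini-Hochberg adjusted p-values over all 15564 genes. The libraries also differed in ways that the groups do not explain. Hemoglobin transcripts took 6.39% to 6.76% of reads in D3TA-1, D3TA-2 and WT-3 but 1.40% to 1.91% in the other 3, while the number of genes at 0 was 8449 in WT-2 and 3193 to 5170 elsewhere. Reads of Y-linked genes were present in D3TA-3 and WT-1 and at or near 0 in the other 4. Over all genes tested, 0 passed an adjusted p of 0.05 (0% called) in limma, 1542 had an unadjusted p under 0.05, and DESeq2 on whole reads recovered from the values called 472 of 24906.

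No member passed the threshold in limma, and the 7 genes did not share 1 direction. Il5ra and Prg3 lay lower in all 3 D3TA spleens than in any WT spleen, by 3.46-fold and 3.14-fold in group means. Prg2, Epx, Ear2 and Ccr3 varied mainly between WT mice, with WT-3 highest for each of them, and Siglecf was low in both groups, at 10 to 55 reads. Of the 7 log2 differences, 5 were below 0, with a median of -0.25, where the median over all tested genes was 0.06. The 3 D3TA values lay wholly below the 3 WT values for 2 of the 7 members, against a background of 6.84% of tested genes, and wholly above for 0, against 8.18% (2 of 7 in either direction, against 15%). The same 2 members had an unadjusted p under 0.05 in the lower direction, against 3.83% of tested genes, and 0 had one in the higher direction, against 6.08%.

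**Figure D1:**
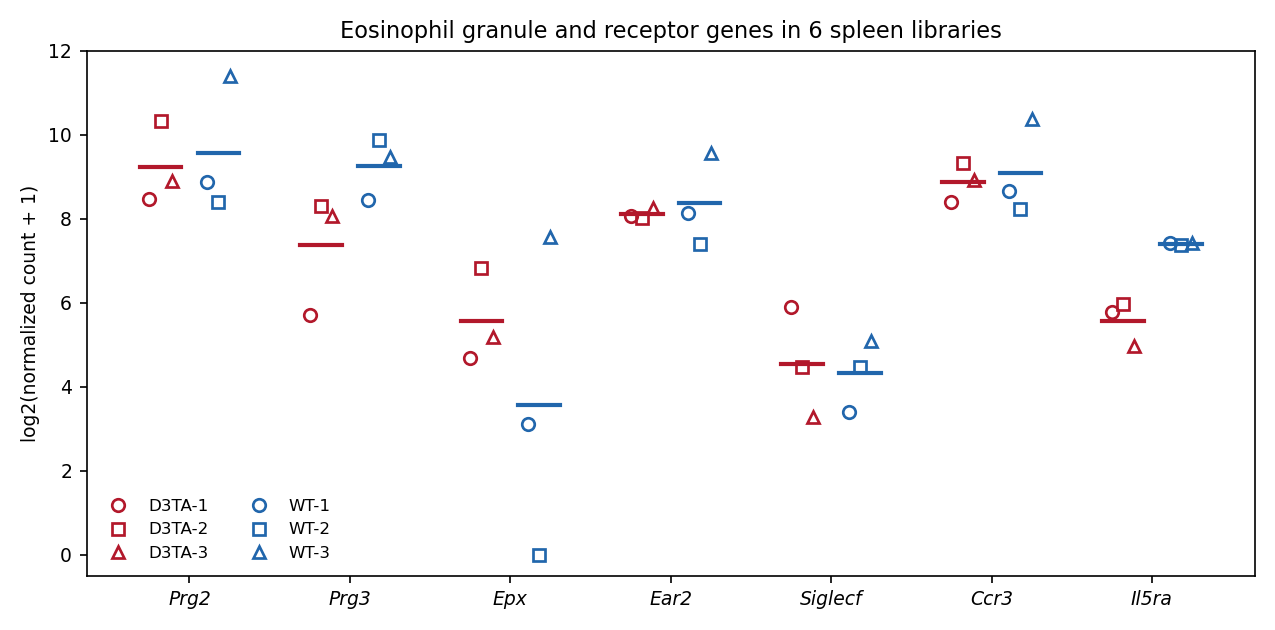
Level of each of the 7 genes in the 3 D3TA (red) and 3 WT (blue) libraries, as log2(normalized count + 1) on the vertical axis, with marker shapes for the mice and bars for group means on that scale. Il5ra and Prg3 show no overlap between groups, WT-3 is highest for 5 of the 7 genes, and Epx is at 0 in WT-2.

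Il5ra (ENSMUSG00000005364, chromosome 6, 106710357 to 106749037, minus strand, GRCm38), the alpha chain that gives the interleukin-5 receptor its specificity, had normalized counts of 53.6, 61.6 and 30.3 across the D3TA mice and 169.1, 165.6 and 169.1 across the WT mice. The WT libraries were nearly level, the D3TA libraries were all low, and the lowest WT value was 2.69 times the highest D3TA value. Group means were 48.5 ± 16.3 in D3TA and 168 ± 2.0 in WT mice (n = 3 each, SD). The log2 difference was -1.83 ± 0.45 (SE; 95% interval -2.83 to -0.84), with an unadjusted p of 0.00204 and a Benjamini-Hochberg adjusted p of 0.232 in limma. DESeq2 on recovered reads gave -1.80 with an adjusted p of 0.0119. Il5ra was the sole member called by DESeq2, which gave Epx no p-value. Of the 24906 genes in the table, 24866 had a p-value in DESeq2. As shares of the 24906, 0.526% were called lower and 1.9% in either direction. Without D3TA-3, limma called 1.97% of genes and 0 of the 7 members. The 6 fits that left out 1 library gave differences from -2.03 without D3TA-2 to -1.53 without D3TA-3. Because the groups do not overlap, the sign was fixed in any subset of the libraries, and only the size could vary. Among libraries rich in hemoglobin the Il5ra difference was -1.54, resting on WT-3 alone for WT, and among the others it was -2.43, resting on D3TA-3 alone for D3TA.

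Markers of B cells lay below 0 for 8 of 8 genes, against 45.5% of all tested genes, with 0 past the threshold. The 3 D3TA values lay wholly below the 3 WT values for 5 of the 8, against 6.84% of tested genes. Cd22, Cr2 and Pax5 overlapped, with Cd22 highest in D3TA-2. The summed level of all 8 ranged from 10747 to 35527 in D3TA and from 56877 to 69998 in WT. None of the 8 was at 0 in any library. Fcer2a, the low-affinity IgE receptor of mature B cells, had means of 443 ± 208 (D3TA) and 2100 ± 791 (WT; adjusted p = 0.117 in limma), and Cd79a, a signalling chain of the B cell receptor, averaged 5685 ± 2557 and 19901 ± 2939 (SD, n = 3 each). Of 9 markers of B-1 and plasma cells 6 lay below 0, with a summed level of 27833 to 70237 in D3TA and 82843 to 95701 in WT, and none was at 0. Jchain made up most of that sum, and without it the other 8 summed to 4060, 13870 and 15788 across the D3TA mice and 14411, 11623 and 14260 across the WT mice, which overlap. Tnfrsf17, the BCMA receptor of plasma cells, averaged 48.6 ± 15.3 against 113 ± 34.5, and Jchain, the joining chain of secreted IgM and IgA, averaged 43379 ± 17276 against 76921 ± 7814. Bhlhe41, a transcription factor of B-1 cells named after its values were seen, averaged 441 ± 149 in D3TA and 403 ± 44.9 in WT, with overlapping groups. The part of these cells in the Il5ra result was not tested.

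Genes of interleukin-5 signalling and of the receptors for interleukin-3 and GM-CSF showed no direction as a list. Il5 and Il3 were not analysed here, and Csf2, the gene for GM-CSF, was at 0 in 4 libraries and at most at 3.03. The 9 tested genes held signalling partners, beta chains and the alpha chains Csf2ra and Il3ra, which Il5ra does not pair with. Among these 9, 6 lay above 0 and 0 passed the threshold. The median log2 difference was 0.08, near the 0.06 of all tested genes, of which 8486 of 15564 lay above 0. Csf2rb, the common beta chain, had values of 1462, 1305 and 1870 across the D3TA mice and 1303, 797 and 507 across the WT mice. The groups of Csf2rb did not overlap, though D3TA-2 and WT-1 were nearly equal, and the difference on the log2 scale came to 0.92 ± 0.36 (SE; adjusted p = 0.444 in limma). Csf2ra, the GM-CSF receptor alpha chain, averaged 774 ± 210 in D3TA and 417 ± 205 in WT mice (n = 3 each, SD).

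Prg2 and Prg3 encode major basic protein and its homolog, strongly basic proteins that damage parasites and host cells. The genes are neighbours on chromosome 2, 4582 bases apart with no annotated gene between them. Prg3 (ENSMUSG00000027072, 84988215 to 84993886, plus strand) had normalized counts of 51.4, 316 and 269 across the D3TA mice and 348, 939 and 710 across the WT mice. The groups did not overlap, but the gap was narrow, since the lowest WT value was 1.10 times the highest D3TA value, and D3TA-1 stood far below the rest. Means were 212 ± 141 in D3TA and 666 ± 298 in WT mice (n = 3 each, SD), with a log2 difference of -1.90 ± 0.65 (SE; 95% interval -3.34 to -0.46), an unadjusted p of 0.0144 and an adjusted p of 0.391 in limma. The difference was -1.07 without D3TA-1 and -0.77 without both D3TA-1 and WT-2. It was -2.46 between the high-hemoglobin and -1.09 between the low-hemoglobin libraries. With groups that do not overlap, the sign of these values was fixed in advance.

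Prg2 (ENSMUSG00000027073, 84980461 to 84983632, plus strand) had normalized counts of 353, 1289 and 478 across the D3TA mice and 472, 337 and 2681 across the WT mice. WT-3 was 2.08 times the next library, D3TA-2, and the lowest value was that of WT-2, so the WT group spanned the whole D3TA group. The log2 difference was -0.32 ± 0.72 (SE; 95% interval -1.92 to 1.27; adjusted p = 0.910 in limma), and it was 0.59 without WT-3 and 0.06 without D3TA-1. It also differed in sign between library classes, at -1.99 among the high-hemoglobin and 0.26 among the low-hemoglobin libraries, and Ccr3 (-1.51 and 0.47), Ear2 (-1.53 and 0.48) and Epx (-1.80 and 3.63) had the same split. WT-3 is the only WT library in the high class and D3TA-3 the only D3TA library in the low class, so these values rest on single libraries.

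The pair did not keep a fixed proportion. Prg2 made up 87.3% of the reads of both genes in D3TA-1 (95% Wilson interval 83.6% to 90.3%), 80.3% in D3TA-2 and 64.0% in D3TA-3. The share was 57.6% in WT-1, 26.4% in WT-2 (23.9% to 29.0%) and 79.1% in WT-3. WT-2 was the only library of the 6 with more Prg3 than Prg2 reads, 839 against 301, and per length of exon its Prg3 level was 2.46 times that of Prg2. Counting error is all that these intervals cover, because PCR copies cannot be told from separate molecules, and the shares of the groups overlapped. The 2 transcripts align over 362 bases at 70.7% identity, with a longest shared run of 23 bases.

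**Figure D2:**
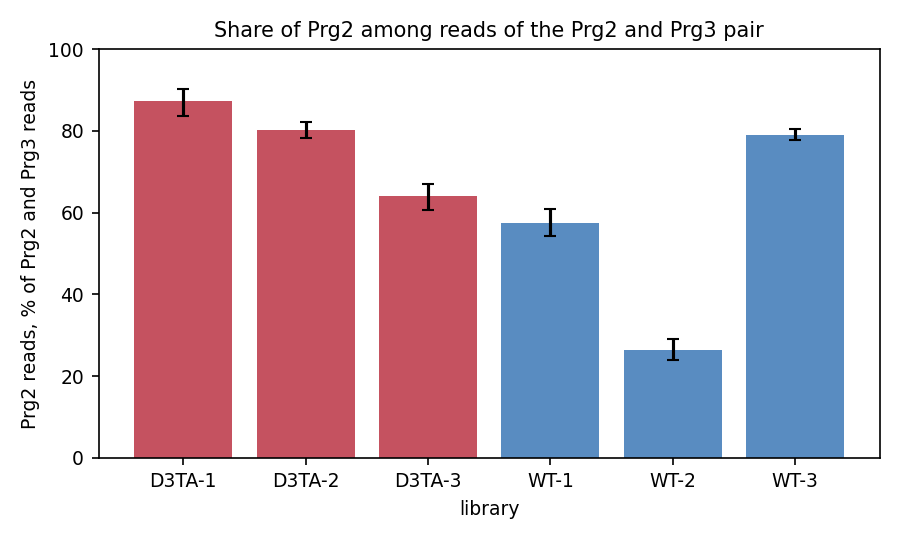
Prg2 reads as a percentage of all reads assigned to Prg2 or Prg3, on a scale from 0 to 100%, with 1 bar per library (red D3TA, blue WT) and 95% Wilson intervals for counting error. The share runs from 26.4% in WT-2 to 87.3% in D3TA-1, and WT-3 lies within the range of the D3TA libraries.

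Epx (ENSMUSG00000052234, chromosome 11, 87864000 to 87875536, minus strand), the eosinophil peroxidase that makes hypobromous acid, had normalized counts of 24.6, 113 and 35.4 across the D3TA mice and 7.64, 0 and 187 across the WT mice. WT-3 was highest, WT-1 and WT-2 were lowest, and the D3TA values lay between them. A count of 0 in WT-2 allows up to 3 reads, a normalized count of 3.36. Means were 57.7 ± 48.3 in D3TA and 65.0 ± 106 in WT mice (n = 3 each, SD), so the group mean was slightly lower in D3TA, while the log2 difference was 2.01 ± 1.56 (SE; 95% interval -1.45 to 5.47; adjusted p = 0.706 in limma). On other settings the difference was -0.19 in edgeR and -0.17 in DESeq2, 1.18 with a pseudocount of 5 and 0.23 without WT-2. It was larger without WT-3 (4.01), without D3TA-1 (2.45) and with a pseudocount of 0.5 (2.36). DESeq2 gave this gene no p-value. In WT-2, the library with 0 reads of Epx, Prg3 reached its highest value of 939.

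Epx is related to Mpo, the peroxidase of neutrophil primary granules, with 71.9% identity over 2059 aligned bases and a longest shared run of 26 bases. The pair had different patterns over the libraries. Mpo was at 15516, 8392 and 2457 across the D3TA mice and at 320, 334 and 332 across the WT mice. All 6 markers of early granulocytes lay above 0 with a median log2 difference of 3.43, and all 8 of maturing neutrophils with a median of 3.86. Neither Epx nor Prg3 had its highest value in the library with most Mpo, D3TA-1, where Prg3 was at its lowest.

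Ear2 (ENSMUSG00000072596, chromosome 14, 44102654 to 44103534, plus strand), a ribonuclease of the eosinophil-associated family, had normalized counts of 269, 260 and 303 across the D3TA mice and 279, 168 and 763 across the WT mice. The D3TA libraries were close together, with an SD of 8.16% of their mean, and the WT libraries lay on either side of them, with an SD of 78.4% of theirs. The log2 difference was -0.25 ± 0.50 (SE; 95% interval -1.35 to 0.85; adjusted p = 0.897 in limma), and 0.35 without WT-3. Ear2 values are uncertain, because its transcript is 96.4% identical to that of Ear1 over 713 bases, with a run of 96 identical bases, and shares a run of 185 bases with Ear10. Its gene also overlaps the non-coding Gm49101 on the other strand, which was at 0 to 24.2, and no strand marking is described. Of 11 other genes of the family listed, 3 were found in the table and 0 passed the filter. Ear1 was at 123 and Ear6 at 137 in WT-3, against at most 28.3 and 14.1 in the other 5 libraries, both named after their values were seen.

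Ccr3 (ENSMUSG00000035448, chromosome 9, 124021972 to 124031689, plus strand), the eotaxin receptor that guides eosinophils into tissue, had normalized counts of 336, 637 and 481 across the D3TA mice and 401, 300 and 1322 across the WT mice. WT-3 was 2.07 times the next library and WT-2 was lowest, as for Prg2. Group means were 485 ± 151 and 674 ± 563 (SD, n = 3 each), with a log2 difference of -0.21 ± 0.51 (SE; 95% interval -1.35 to 0.93; adjusted p = 0.918 in limma). Without WT-3 the difference was 0.43, and without D3TA-1 it was 0.03. Of the 6 chemokine ligands of this receptor tested, 3 lay above 0 and 0 passed the threshold, with a median of 0.04. Ccl11, the gene for eotaxin-1, averaged 17.2 ± 9.07 in D3TA and 63.8 ± 70.2 in WT, and Ccl24, for eotaxin-2, averaged 45.8 ± 25.8 and 28.9 ± 39.1 (SD, n = 3 each), all with overlapping groups.

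Siglecf (ENSMUSG00000039013, chromosome 7, 43351341 to 43359531, plus strand), an inhibitory receptor for sialylated glycans and a common surface marker of mouse eosinophils, was low throughout. Its normalized counts were 58.9, 21.2 and 8.64 across the D3TA mice and 9.55, 21.3 and 32.9 across the WT mice, from 10 to 55 reads per library. The D3TA libraries enclosed the WT libraries. The log2 difference was 0.23 ± 0.88 (SE; 95% interval -1.71 to 2.17; adjusted p = 0.951 in limma), and it was -0.45 without D3TA-1 and -0.23 without WT-1. It was 0.11 among the high-hemoglobin and -0.67 among the low-hemoglobin libraries.

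**Figure D3:**
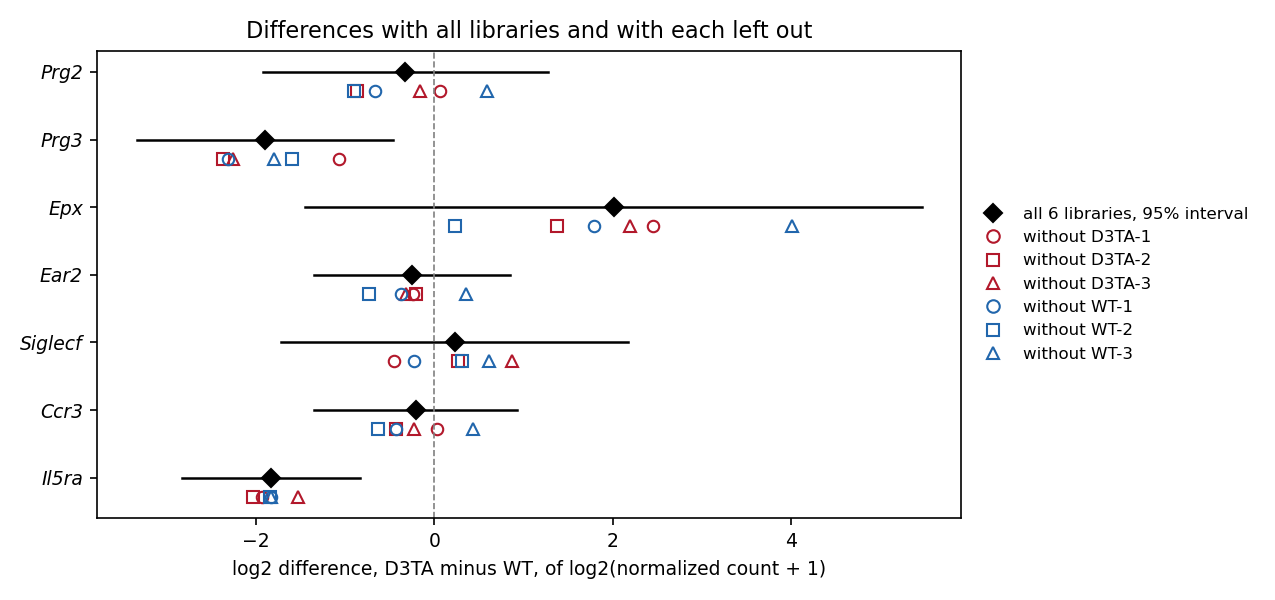
Log2 differences, D3TA minus WT, of log2(normalized count + 1) for the 7 genes, with 95% intervals from limma (black), and below each the value when 1 library is left out (red D3TA, blue WT). Prg2, Ear2, Ccr3 and Siglecf cross 0 with the library that is left out. Those for Il5ra and Prg3 stay below 0, as they must where the groups do not overlap.

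WT-3 was the highest library for 5 of the 7 genes, and WT-2 the lowest for 4. For Prg2, Epx, Ear2 and Ccr3, the WT-3 value exceeded the next library by 1.66 to 2.52 times, while for Il5ra it equalled WT-1 within 0.1. The members' summed level was 5866 in WT-3 and 1147 to 2698 in the other 5 libraries. Markers of red pulp macrophages, the iron-recycling phagocytes of the spleen, were also highest in WT-3 for 6 of 7 genes, all but Axl. All 7 of these markers were detected in every library, with a summed level of 20204 to 36459 in D3TA, 30207 and 32143 in WT-2 and WT-1, and 67150 in WT-3. Hmox1, the heme oxygenase of these cells, was at 15350 in WT-3 and 3622 to 7678 elsewhere. Markers of patrolling monocytes summed to 1668 to 3557 in D3TA and 2734 to 4189 in WT, with none of 7 at 0. Their sum was highest in WT-3, but only 3 of the 7 genes were. Of the others, 2 were highest in D3TA-3 and 2 in WT-1. WT-3 also had a hemoglobin share of 6.57%. The part of these cells or of blood content in the WT-3 values was not tested.

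Markers of basophils and mast cells, which carry the IgE receptor, did not follow the members. All 7 lay above 0, with a median log2 difference of 2.11 and 0 past the threshold, and their summed level was 1058 to 1493 in D3TA and 438 to 680 in WT. Kit, with the highest mean, and Cd200r3 overlapped between the groups, both named after their values were seen. Without Kit the other 6 summed to 687, 668 and 732 across the D3TA mice and 240, 94.0 and 214 across the WT mice. Prss34, a basophil protease, averaged 340 ± 49.3 against 85.2 ± 41.6, and Mcpt8, also a basophil protease, 200 ± 28.6 against 45.3 ± 25.3 (SD, n = 3 each). Ms4a2 and Fcer1a, chains of the IgE receptor named after their values were seen, were at 0 in WT-2.

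**Figure D4:**
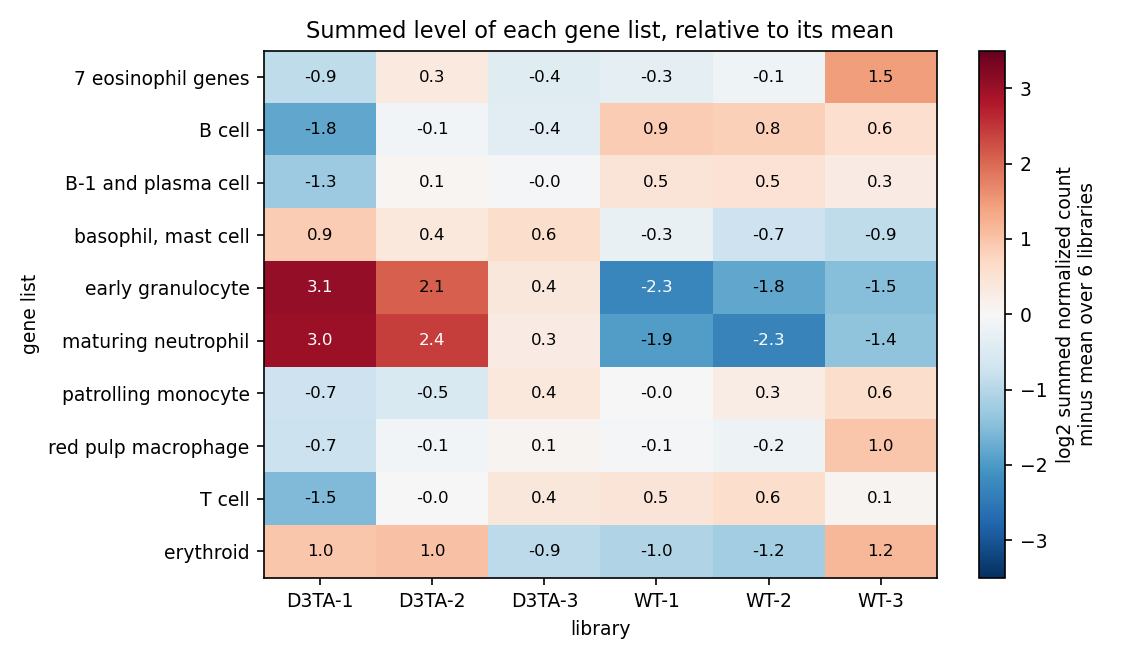
Summed normalized counts of 10 gene lists in the 6 libraries, as log2 values minus the mean of each list over the libraries (red above, blue below the mean). The 7 eosinophil genes reach 1.46 in WT-3 and -0.90 in D3TA-1, where the early granulocyte and neutrophil lists are at 3.09 and 2.98 and the B cell list is at -1.81.

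Transcription factors of the eosinophil lineage were split. Of 12 tested, 6 lay above 0 and 6 below, 0 passed the threshold, and the median was 0.00236. Cebpe, needed for terminal granulocyte differentiation, was at 1867, 1234 and 217 across the D3TA mice and at 48.7, 0 and 130 across the WT mice. The Cebpe groups did not overlap, and the difference on the log2 scale came to 5.41 ± 1.58 (SE; adjusted p = 0.319 in limma). The 0 in WT-2 weighs on this difference, and group means were 1106 ± 832 in D3TA and 59.4 ± 65.4 in WT (SD). Gata1, shared with the erythroid and megakaryocyte lineages, was at 4629, 1228 and 352 against 494, 499 and 743, with D3TA-1 far above the rest. Of 14 other genes of mature eosinophils 11 were tested, of which 6 lay above 0, with a median of 0.14 and 0 past the threshold. Alox5, the lipoxygenase of leukotriene synthesis, averaged 343 ± 219 in D3TA and 44.3 ± 7.63 in WT, and Itgam, the CD11b integrin of myeloid cells, 1284 ± 927 and 206 ± 67.0 (SD, n = 3 each). Both are also expressed by neutrophils, whose markers were highest in the same libraries. The part of neutrophils in the Alox5, Itgam and Cebpe values was not tested.

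Per kilobase of exon, the order of levels in WT was Prg2 (mean normalized count per kb 1388), Prg3 (701), Ear2 (561), Ccr3 (206), Il5ra (47.0), Epx (23.8) and Siglecf (7.61). In D3TA it was Prg2 (843), Ear2 (385), Prg3 (224), Ccr3 (148), Epx (21.1), Il5ra (13.6) and Siglecf (10.6). Prg3 stood above Ear2 in the WT means through WT-2 alone, being below it in the other 2 WT libraries and in all 3 D3TA libraries, and Il5ra stood above Epx in the WT means and below it in the D3TA means, each in 2 of 3 libraries. Among neighbours in the WT order, the ranges over libraries were apart only for Ccr3 and Il5ra. In the D3TA order they were apart for Prg2 and Ear2, Ear2 and Prg3, and Ccr3 and Epx. Ear2 exceeded Ccr3 in 3 of 3 WT libraries although their ranges overlap.

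The genes whose log2 values ran most alike with each member over the 6 libraries were taken from 12318 other tested genes with a mean of at least 50, by Pearson correlation, as a description. For Il5ra they were Sfn (r = 0.992), Gm11346 (0.989) and Ivd (0.989). Sfn was at 208, 281 and 159 across the D3TA mice and at 702, 726 and 751 across the WT mice. For Prg3 they were Pkib (0.997), Ppp1r11 (0.995) and Por (0.992), with Pkib at 171, 484 and 464 in D3TA and 581, 952 and 790 in WT, in the order of the libraries. For Prg2 they were Arpc5 (0.995), Mtg2 (0.994) and Zfand1 (0.994), and for Ccr3 Arpc5 (0.989), Itgad (0.989) and Ift20 (0.986). Itgad, the alpha D integrin chain, was at 574, 989 and 668 across the D3TA mice and at 610, 508 and 1547 across the WT mice. For Epx they were Stx5a (0.990), Fbxw9 (0.985) and Samd9l (0.984), for Ear2 Gm14253 (0.995), Lcmt2 (0.990) and Unc50 (0.983), and for Siglecf Ube2e3 (0.997), Smim1 (0.995) and Tusc1 (0.995). The members themselves were left out of the pool, and the points share library depth and cell composition. Each r was picked as among the highest of 12318 over only 6 libraries. It was 0.983 or more for every member, the low Siglecf included, so these values do not show shared regulation.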

How the data were processed

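Spleen mRNA was captured on poly-T beads and primed with hexamers of random sequence, per the labels' protocols, which describe no strand marking. HISAT2, DESeq2, Trim Galore, FastQC, CASAVA and mm10 are listed in the submitters' processing notes. Which program and annotation gave the counts is not given in the sources used here.

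Although named raw counts, the deposited values are not whole numbers. They were treated as a signal, read counts already divided by the authors by 1 size factor per library, which was judged from the numbers themselves. Every value was a whole multiple of a step of 0.864 to 1.12 (100% of 149436 values within 0.001), which gave back whole reads.

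After adding 1 and taking log2, values were compared in limma 3.58.1 (robust empirical Bayes with a trend, genotype only, 2-sided), with Benjamini-Hochberg adjustment over 15564 genes and a threshold of 0.05. With 3 against 3 mice an exact permutation test cannot go below 0.1. DESeq2 1.42.0 and edgeR 4.0.16 on recovered reads, limma-voom, other scalings, filters and pseudocounts, left-out libraries, the replicate block and terms for hemoglobin or Y-linked reads were alternatives. The limma test was checked on simulated counts. At a dispersion of 0.15 it recovered 74 of 100 changes of 4-fold and 100 of 100 of 16-fold, with 2 false calls. Each simulation gave all genes the same dispersion, so it does not show how the test does for genes as variable as Epx. Symbols and coordinates are from GENCODE M21 (GRCm38), which held 24860 of 24906 identifiers, and transcripts were aligned with BLAST 2.17.0. The labels number the libraries 1 to 3 per group and give each a column name with its own code, which no fit used.

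The members and lists were chosen with earlier results of these data known. Besides the members, the rule for named genes took up to 2 genes with the smallest p of each list and the 3 nearest patterns of each member. Marker lists of T cells, erythroid cells and megakaryocytes were also measured: of 7, 7 and 4 tested genes, 0, 7 and 4 lay above 0, with medians of -0.78, 0.67 and 0.66 and 0 past the threshold. Of these, Cd3d and Cd3g averaged 1819 and 1210 in D3TA and 2985 and 1859 in WT, and Ppbp 2322 and 1488.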

Additional observations from a re-analysis of the deposited data

How the results depend on the processing

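Over the 21 alternatives the difference ran from -2.03 to -1.53 for Il5ra and from -2.37 to -0.77 for Prg3. These are not 21 separate checks of the sign. Fits with left-out libraries could not change it, as the groups do not overlap. Recomputed size factors, other filters, the replicate block and the term for Y-linked reads returned the reported differences of -1.83 and -1.90 unchanged. Il5ra passed the threshold in DESeq2 only (-1.80, adjusted p = 0.0119), where the count of members called was 1 in place of 0. Its adjusted p over the alternatives ranged from 0.0119 to 0.683. Leaving out 1 library gave ranges of -0.90 to 0.59 for Prg2, -2.37 to -1.07 for Prg3, 0.23 to 4.01 for Epx, -0.74 to 0.35 for Ear2, -0.45 to 0.87 for Siglecf, -0.63 to 0.43 for Ccr3 and -2.03 to -1.53 for Il5ra. Other changes of sign were Epx in edgeR (-0.19) and DESeq2 (-0.17) and Siglecf without both D3TA-1 and WT-2 (-0.37) and with the hemoglobin term (-0.28). The cause was not tested.

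The count of all genes called, 0 in the reported fit, became 44 without a filter, 11 with the hemoglobin term, 15 with the term for Y-linked reads and 472 in DESeq2, and ranged from 0 to 306 with 1 library left out (306 without D3TA-3). The replicate block gave 0 calls and, being balanced, could not move the differences of -1.83 for Il5ra and -1.90 for Prg3. Same-numbered libraries did not deviate together (r = -0.06, -0.00456 and -0.13 across genes), so the numbers were not taken as pairs. Siglecf, at 10 to 55 reads, and Epx, at 0 to 194 reads, had the lowest minimum read counts among the members.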
